A study of Mus musculus with 6 samples.

Results

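The genes of the mitochondrial protein import machinery were followed in inguinal white fat (iWAT) of mice that carry an *Hlx* transgene and of their littermates. They were taken from the table by name: all rows with a symbol that starts with Tomm or Timm, and the rows of *Pam16*, *Dnajc15*, *Dnajc19*, *Grpel1*, *Grpel2*, *Pmpca*, *Pmpcb*, *Samm50*, *Mtx1*, *Mtx2* and *Chchd4*. This gave 32 of the 19445 gene loci. RNA-Seq was done on 3 transgenic (TG) and 3 wild-type (WT) mice, 12 weeks old and labelled as males, with 1 library per mouse. The transgenic mice carried the *Hlx* cDNA under the *aP2* (*Fabp4*) promoter, which is active in fat, on a background of C57BL/6 × SJL founders crossed back to C57BL/6, and the labels do not say from which founder line the 3 mice came. *Hlx* itself, on chromosome 1, was measured at 109.7, 79.6 and 99.5 FPKM in the transgenic mice and at 6.88, 7.35 and 8.14 FPKM in the controls, so each library matched its genotype. Transgene and endogenous *Hlx* RNA are counted together in these values. FPKM is a read density per length of transcript, scaled to the mapped reads of the library, so it can be compared between genes.

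In all 6 libraries *Xist*, the RNA of the inactive X chromosome, was present at 20.2 to 33.6 FPKM and 0 of 28 loci on the Y chromosome had a value above 0, which does not match the label male. The FPKM of a sample summed to 466059 to 542096. The depth is unknown in absolute terms, and the relative depth ranged from 0.692 in TG replicate 3 and 0.714 in TG replicate 1 to 1.41 in WT replicate 2. All 8 adipocyte markers were in the table, with summed levels of 29710 to 35109 FPKM in transgenic mice against 25945 to 31903 FPKM, and 2 of the 8 were called lower by the test given below. The 6 brown adipocyte markers summed to 3085 to 4333 FPKM against 187 to 319 FPKM, with 5 called higher. The 7 macrophage markers found, of 8, summed to 494 to 709 against 938 to 1259 FPKM, with 5 called lower, and the 6 fibroblast markers to 1303 to 1785 against 1928 to 2399 FPKM, with 1 called lower. The 7 lymphocyte markers found, of 8, summed to 237 to 315 against 307 to 415 FPKM, with 1 called lower. The 6 endothelial markers summed to 141 to 150 against 127 to 137 FPKM, with 2 called higher, and the 4 erythroid markers found, of 5, to 1139 to 1357 against 526 to 962 FPKM, with 1 called higher. The 7 epithelial markers summed to 84.4 to 179 against 128 to 203 FPKM, and the 8 skeletal muscle markers summed to 950 FPKM in TG replicate 2 and to 205 to 360 FPKM in the other libraries. No marker found was at 0 in all samples. The part of these cell types in the results was not tested.

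Most mitochondrial proteins are made in the cytosol and enter the organelle through a chain of machines. The TOM complex of the outer membrane recognizes and passes nearly all of them. The SAM complex inserts barrel proteins into the outer membrane, small TIM chaperones escort hydrophobic proteins through the space between the membranes, the MIA pathway oxidizes proteins that stay there, and TIM22 inserts carriers into the inner membrane. TIM23 passes proteins with a presequence, the motor PAM pulls them into the matrix, and the peptidase MPP cuts off the presequence. Brown adipocytes are known for their many mitochondria, and UCP1 is itself an inner membrane carrier made in the cytosol.

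Most of the import genes were expressed at a moderate level, and those that changed were higher in transgenic iWAT. Of the 32 loci, 29 passed the filter, for which the mean FPKM of transgenic or of wild-type mice had to exceed 1, and all of these had group means of 5.46 FPKM or more in both genotypes. Each locus was tested with limma on log2(FPKM + 1), and a locus was called at an adjusted p under 0.05. Of the 29 genes, 16 were called higher, where 11.6% of all 11692 loci tested were, and 0 were called lower, where 7.03% of all loci were. At an unadjusted p under 0.05, 18 were higher and 1 was lower, beside 2267 and 1963 of the 11692 loci tested. The median log2 fold change was 0.34 (quartiles 0.24 and 0.60) beside -0.01 over all loci tested. Over the 16 genes tested on loci of their own, a choice made after seeing the data, it was 0.55, with 10 called higher. With no filter on low values 7 import genes were called higher, where 3.85% of all loci were, and at an adjusted p under 0.01 the count was 4. No share of all loci is given at that stricter threshold. The log2 fold change was positive for 26 genes, where 48.4% of all loci were positive. The largest was 1.04, and a ratio of mean FPKM of at least 2 was reached by 1 gene, *Pmpcb*, where 4.52% of all loci reached it. Every transgenic mouse was above every control for 20 genes, where 22.8% of all loci were, and below for 1 gene, where 20.1% were. Since whole tissue was sequenced, more cells of a type and more RNA per cell cannot be told apart.

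The number of genes called depended on single mice, for the import genes and for all loci. The count of 16 fell to 8 without TG replicate 1, 7 without TG replicate 3, 9 without WT replicate 2 and 8 without WT replicate 3, and it was 14 and 12 without the remaining mice, TG replicate 2 and WT replicate 1. The share of all loci called higher went from 11.6% to 7.79%, 6.95%, 7.28% and 6.68% in the first 4 of these fits, and to 11.1% and 8.94% in the others. Called in all 14 refits, each with another setting or 1 mouse left out, were 6 genes, namely *Mtx2*, *Timm9*, *Timm22*, *Grpel1*, *Pmpca* and *Pmpcb*. TG replicate 1 had the highest transgenic value for 20 of the 29 genes, and WT replicate 1 the highest wild-type value for 21. Without TG replicate 2, the library with the most skeletal muscle RNA, the median log2 fold change was 0.34.

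**Figure D1:**
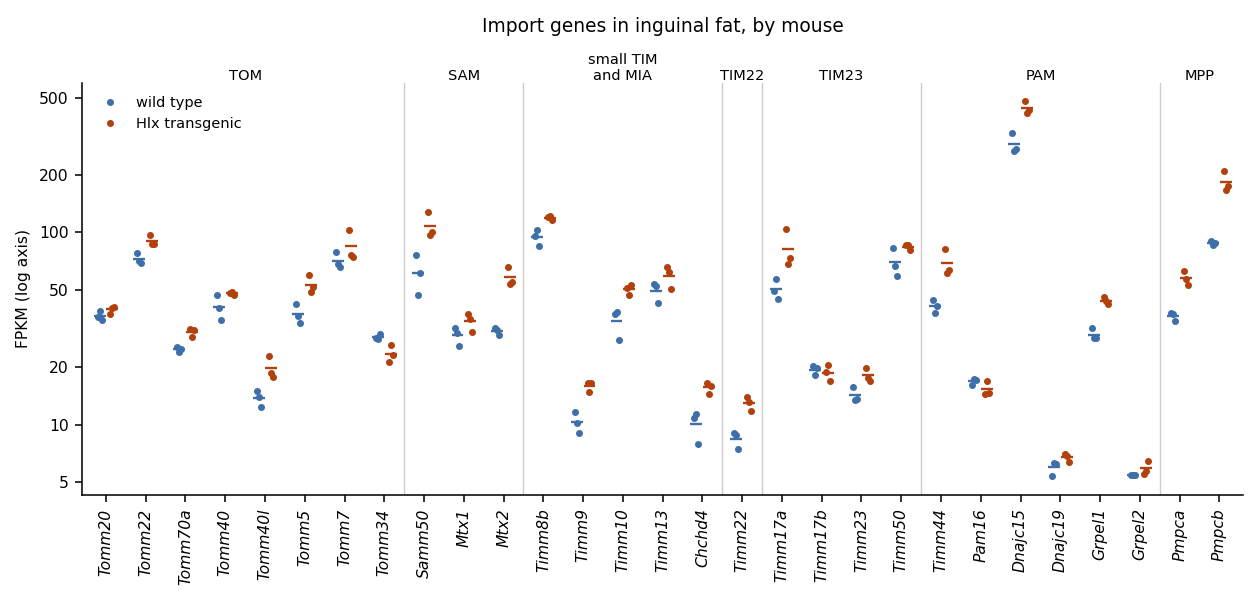
FPKM on a log axis of the 29 import genes that passed the filter, ordered by complex; each point is 1 mouse and each bar the mean of 3 mice. The transgenic points of *Pmpcb* (166 to 209 FPKM) and *Mtx2* (54.2 to 65.7 FPKM) lie far above the controls, while those of *Tomm20* and *Timm17b* mix with them.

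The presequence peptidase had the largest change in summed level among the import complexes, which was not tested against the others. MPP cleaves the targeting signal once a protein has reached the matrix, and both of its subunits, catalytic *Pmpcb* and *Pmpca*, were called. *Pmpcb*, on chromosome 5 of mm10 from 21737160 to 21757152 (plus strand), had 209, 166 and 174 FPKM in transgenic mice against 90.1, 85.6 and 88.6 FPKM in controls. The 3 control values lay close together, and the lowest transgenic value was far above them. Its log2 fold change was 1.04 (SE, the standard error, 0.11, adjusted p = 0.00163 by limma). *Pmpca*, on chromosome 2 from 26382751 to 26409188, had 63.2, 57.1 and 53.4 FPKM against 38.2, 37.5 and 34.7 FPKM, a log2 fold change of 0.64 (SE 0.09, adjusted p = 0.00468). Its locus overlaps those of *Sdccag3* and *Inpp5e*, and the library kit does not mark strand, so reads of overlapping genes may be shared.

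The SAM complex rose in part. *Samm50* is the barrel channel, and *Mtx1* and *Mtx2* are metaxins on its cytosolic face. *Mtx2*, on chromosome 2 from 74825812 to 74876748 (plus strand), had 65.7, 54.2 and 55.2 FPKM in transgenic mice and 32.0, 31.0 and 29.2 FPKM in controls. The groups were well apart, with a log2 fold change of 0.90 (SE 0.10, adjusted p = 0.00187 by limma). *Samm50*, on chromosome 15 from 84192233 to 84214303, had 127.9, 96.97 and 100.7 FPKM against 76.4, 47.4 and 61.6 FPKM. Its groups did not overlap but its controls were spread, and the log2 fold change of 0.82 (SE 0.19, adjusted p = 0.0265) lost its call in 5 of 14 refits, with an adjusted p of up to 0.104. *Mtx1* had 37.7, 35.3 and 30.5 FPKM against 31.9, 30.0 and 25.6 FPKM, with overlapping groups (log2 fold change 0.24, adjusted p = 0.188).

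The 2 genes with the largest rises, *Pmpcb* and *Mtx2*, hold the same 8 letters, CCGGAAGT, just before their RefSeq start. These are core letters of sites bound by the ETS family, which includes GABPA, a known regulator of genes for mitochondrial proteins. The 2 genes were set side by side after their values were seen. In *Pmpcb* the letters run from -16 to -9 relative to that start. By the GENCODE annotation the last 19 bases before it are already exon, so the match lies inside the *Pmpcb* transcript. In *Mtx2*, with letters from -25 to -18, the last 9 bases are exon. The 100 bases before the start (RefSeq, GRCm38.p6, the same build as mm10) are shown 5′ to 3′ for these genes and for *Tomm70a*, which has the letters farther upstream, and, for other motifs, for *Timm8b* and for *Tomm20*, which was not called. Capitals mark a motif match. *Mtx2* is at chr2:74825712-74825811 (plus), *Pmpcb* at chr5:21737060-21737159 (plus), *Tomm70a* at chr16:57121614-57121713 (plus), *Timm8b* at chr9:50603801-50603900 (plus) and *Tomm20* at chr8:126945922-126946021 (minus).
Mtx2: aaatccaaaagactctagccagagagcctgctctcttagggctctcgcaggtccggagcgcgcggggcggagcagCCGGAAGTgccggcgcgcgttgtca
Pmpcb: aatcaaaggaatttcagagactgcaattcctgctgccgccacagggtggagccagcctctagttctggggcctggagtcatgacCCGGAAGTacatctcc
Tomm70a: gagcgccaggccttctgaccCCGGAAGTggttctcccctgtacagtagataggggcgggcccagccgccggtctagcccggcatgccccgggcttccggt
Timm8b: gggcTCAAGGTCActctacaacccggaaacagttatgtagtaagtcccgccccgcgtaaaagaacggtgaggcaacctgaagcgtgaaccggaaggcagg
Tomm20: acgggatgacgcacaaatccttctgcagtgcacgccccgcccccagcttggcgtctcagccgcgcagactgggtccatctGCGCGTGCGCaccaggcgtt

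The windows searched run from 250 bases before to 50 bases after a start, on both strands, and were matched for 29 of the 32 genes. CCGGAAGT was in the windows of 6 of these 29 genes, or 20.7%, and of 8.63% of the 8748 tested genes with a window. Of the called genes it was in 4 of 15 (*Tomm70a*, *Mtx2*, *Timm10* and *Pmpcb*), and of the tested but uncalled ones in 1 of 11 (*Timm23*). The sixth gene, *Timm8a2*, holds the letters at 2 places, from -55 to -48 and from -11 to -4 relative to the start, and was near 0 in every sample. The motif of NRF1 was in 4 of 29 (*Tomm20*, *Timm8b*, *Chchd4* and *Pam16*), or 13.8% beside 11.1%. AAGATGGC, the letters of YY1, were in 2 of 29 (6.9% beside 5.05%), and TNAAGGTCA, those of the estrogen-related receptors, in 1 of 29, *Timm8b* (3.45% beside 0.926%). That match runs from -96 to -88. Of the 100 bases before the *Timm8b* start, 12 lie in an annotated exon of another gene, *Sdhd*. The 29 genes include *Tomm20l*, *Timm8a1* and *Timm8a2*, which did not pass the filter, while the shares set beside them are of tested genes alone. These are matches of letters and were not tested.

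**Figure D2:**
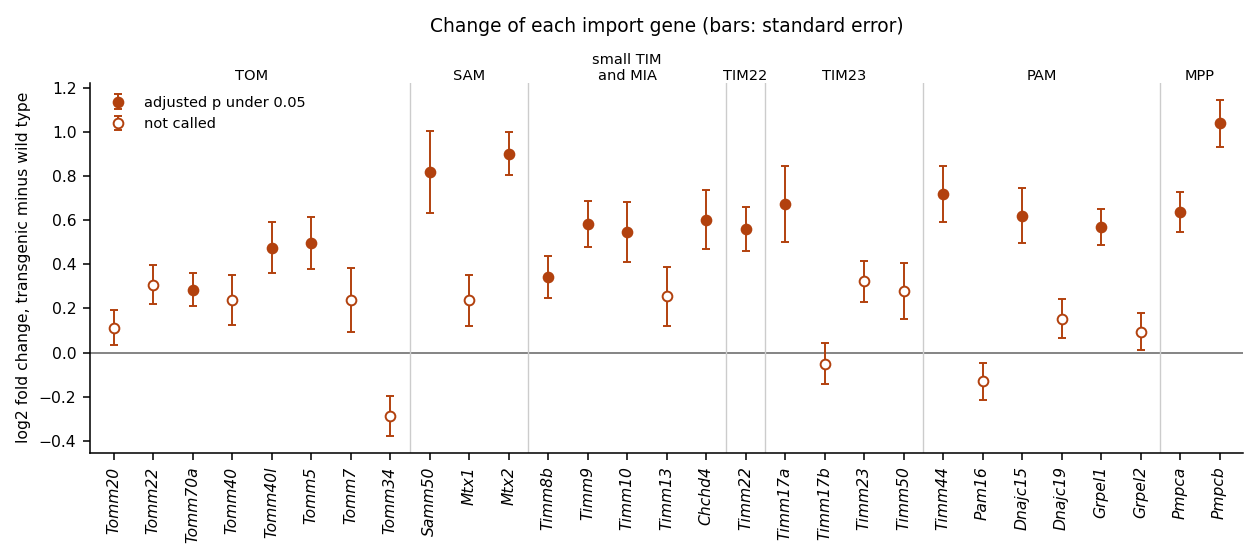
Log2 fold change on the log2(FPKM + 1) scale, transgenic minus wild type, of the 29 import genes by complex, with standard errors from limma (n = 3 mice per genotype). Filled points are the 16 genes with an adjusted p under 0.05, from *Tomm70a* at 0.29 to *Pmpcb* at 1.04; *Tomm34*, *Pam16* and *Timm17b* lie under 0 and were not called.

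In the import motor the common forms rose and their rarer relatives did not pass the test. Of its 6 genes, *Timm44*, *Dnajc15* and *Grpel1* were called higher. *Timm44*, the scaffold that ties the motor to TIM23, on chromosome 8 from 4259731 to 4275905, had 81.7, 61.3 and 64.0 FPKM in transgenic mice against 44.8, 38.0 and 41.3 FPKM in controls. Its log2 fold change was 0.72 (SE 0.13, adjusted p = 0.0111 by limma). *Dnajc15*, a J protein of the inner membrane, was the most abundant import gene of both genotypes, at 480.1, 418 and 431 FPKM in transgenic mice and 331, 264 and 272 FPKM in controls. The difference of 0.62 (SE 0.12, adjusted p = 0.0172) lost its call in 5 of 14 refits, among them quantile normalization, where it was 0.27. *Grpel1*, the exchange factor that recycles the motor chaperone, had 45.9, 43.8 and 42.5 FPKM against 31.9, 28.3 and 28.1 FPKM, a narrow spread in both groups (log2 fold change 0.57, SE 0.08, adjusted p = 0.00502). Its locus overlaps that of *Tada2b*.

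The motor genes at lower levels did not pass the test. *Dnajc19*, the other J protein, had 7.05, 6.85 and 6.40 FPKM against 5.40, 6.33 and 6.25 FPKM (log2 fold change 0.15, limma adjusted p = 0.254). *Grpel2* had 5.55, 5.70 and 6.49 FPKM against 5.47, 5.47 and 5.45 FPKM (0.09, adjusted p = 0.447). In both, the transgenic values lay above the controls by a margin within the transgenic spread. *Pam16*, a regulator that binds J proteins, had 15.3 ± 1.32 FPKM in transgenic mice against 16.8 ± 0.598 FPKM in controls (SD, n = 3; -0.13, adjusted p = 0.305). The rows of *Grpel2* and *Pam16* also carry *Pcyox1l* and *Coro7*, so their values are not of these genes alone, and the *Dnajc19* locus overlaps that of *Fxr1*.

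The inner membrane translocases were higher for some subunits. *Timm22*, the channel of TIM22, on chromosome 11 from 76407167 to 76416312, had 13.9, 13.1 and 11.8 FPKM in transgenic mice and 9.04, 8.81 and 7.48 FPKM in controls. All transgenic values were higher, and the log2 fold change was 0.56 (SE 0.10, adjusted p = 0.0113 by limma). Of the 4 TIM23 genes in the set, *Timm17a* alone was called. The set holds no row under the symbols *Timm21*, *Timm29* or *Tomm6*, so TIM23, TIM22 and TOM are not covered in full. *Timm17a*, a channel subunit on chromosome 1 from 135301535 to 135313737, had 104, 68.8 and 73.9 FPKM against 49.8, 57.3 and 45.0 FPKM, with TG replicate 1 far above its group (0.67, SE 0.17, adjusted p = 0.0366). Without that mouse the adjusted p missed the threshold, as in 6 other refits.

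The remaining TIM23 genes did not pass the test. *Timm17b*, the X-linked relative of *Timm17a*, had 18.7, 20.4 and 16.8 FPKM against 20.2, 18.1 and 19.7 FPKM, with mixed groups (log2 fold change -0.05, limma adjusted p = 0.722). *Timm23*, the channel itself, had 19.8, 17.5 and 16.9 FPKM against 15.7, 13.4 and 13.6 FPKM and did not overlap between groups (0.32, adjusted p = 0.0563). It was called with sample weights and with the replicate block (adjusted p = 0.043 and 0.0428), and its locus overlaps that of *Ncoa4*. *Timm50*, the receptor that hands presequences to the channel, had 84.3 ± 2.66 against 69.9 ± 12.2 FPKM (SD, n = 3; 0.28, adjusted p = 0.164). WT replicate 1, at 83.4 FPKM, was level with the transgenic mice, and without it *Timm50* was called (adjusted p = 0.0427).

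The chaperones between the membranes were higher for 4 of 5 genes tested. *Chchd4*, the oxidoreductase of the MIA pathway that folds small TIM proteins, on chromosome 6 from 91464276 to 91473423, had 16.5, 14.4 and 15.9 FPKM in transgenic mice against 10.8, 11.4 and 7.97 FPKM in controls. Its log2 fold change was 0.60 (SE 0.13, adjusted p = 0.0237 by limma). *Timm9* and *Timm10* form 1 chaperone ring. *Timm9* had 16.4, 14.7 and 16.5 FPKM against 11.7, 10.2 and 9.03 FPKM (0.58, SE 0.10, adjusted p = 0.0113), and *Timm10* was at 50.7 ± 3.14 against 34.7 ± 6.13 FPKM (SD, n = 3; 0.55, adjusted p = 0.0352). The call of *Timm10* was lost in 8 of 14 refits.

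The other ring is built from *Timm8* and *Timm13* proteins. *Timm8b* had 120, 122 and 116 FPKM against 96.2, 102 and 84.6 FPKM (log2 fold change 0.34, limma adjusted p = 0.0479), close to the threshold, and its call was lost in 10 of 14 refits, with an adjusted p of up to 0.129. *Timm13* was at 59.6 ± 8.03 against 49.7 ± 5.86 FPKM with overlapping groups (SD, n = 3; 0.25, adjusted p = 0.211). *Timm8a1*, the mouse counterpart of the gene of deafness-dystonia syndrome, was at 0.537, 0.672 and 0.721 FPKM against 0.774, 0.733 and 0.384 FPKM and did not pass the filter, nor did *Timm8a2*, at 0.223 FPKM or less in every sample and listed at 0 in TG replicate 2 and WT replicate 3. The loci of *Timm8b*, *Timm9* and *Timm13* are 15, 1.88 and 13.9 times as long as their annotated genes and overlap other rows. *Fxc1*, the older symbol under which *Timm10b* is listed, lies outside the set and was at 26.7 ± 1.22 against 28.5 ± 1.81 FPKM (SD, n = 3; -0.09, adjusted p = 0.451).

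The TOM complex, the common entry gate, had the smallest change in summed level, which was not tested against the other complexes. Of the 8 genes tested under TOM, *Tomm5*, *Tomm40l* and *Tomm70a* were called higher, with a median log2 fold change of 0.26 over the 8. Both the sum and the 8 genes include *Tomm34*, a cytosolic cochaperone with a log2 fold change of -0.29. *Tomm5*, a small subunit on chromosome 4 from 45105210 to 45108113, had 59.9, 48.7 and 51.7 FPKM in transgenic mice and 42.6, 36.8 and 33.6 FPKM in controls (0.50, SE 0.12, adjusted p = 0.0299 by limma). *Tomm40l*, a second form of the channel, had 22.7, 18.5 and 17.6 FPKM against 14.9, 14.0 and 12.4 FPKM (0.48, SE 0.12, adjusted p = 0.0327). The groups were apart for both, and their calls were lost in 5 and 6 of 14 refits. *Tomm70a*, a receptor for carrier proteins, had 31.4, 28.6 and 31.0 FPKM against 25.3, 23.9 and 24.8 FPKM (0.29, adjusted p = 0.0376), and its call was lost in 7 of 14 refits. The loci of *Tomm40l* and *Tomm70a* overlap those of *Nr1i3* and *Nit2*.

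The genes *Tomm40*, *Tomm20* and *Tomm22* did not pass the test. *Tomm40*, the main channel, had 48.7, 48.9 and 47.0 FPKM against 47.1, 40.7 and 35.0 FPKM, with WT replicate 1 level with the transgenic mice (log2 fold change 0.24, limma adjusted p = 0.172). The receptor *Tomm20*, whose protein is widely stained as a marker of mitochondria, had 37.8, 40.5 and 41.0 FPKM against 36.1, 39.1 and 34.9 FPKM (0.11, SE 0.08, adjusted p = 0.339). The groups overlapped, and over all refits its log2 fold change ranged from 0.03 to 0.16. *Tomm22*, the central receptor, was at 90.7 ± 5.85 against 73.1 ± 4.61 FPKM without overlap (SD, n = 3; 0.31, adjusted p = 0.0533) and was called with sample weights and with the replicate block (adjusted p = 0.0385 and 0.0448).

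Of the remaining TOM genes, *Tomm7* was at 84.7 ± 16.3 against 71.0 ± 6.86 FPKM (SD, n = 3; log2 fold change 0.24, limma adjusted p = 0.276), on a locus that overlaps 5 other rows. *Tomm34* is a cytosolic cochaperone and not a part of the membrane complex, and was picked out after its values were seen as the sole gene with all transgenic mice below all controls. It had 21.1, 25.9 and 23.0 FPKM in transgenic mice against 28.4, 27.9 and 29.5 FPKM in controls (-0.29, SE 0.09, adjusted p = 0.0696). It was called lower in 3 of 14 refits. *Tomm20l* was listed at 0 in all 6 samples, and its locus has the same bounds as that of *Timm9*.

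For 7 pairs of related genes, the ratio within each mouse was compared between genotypes. Plain ratios are given for each mouse, and the test was made on the difference of log2(FPKM + 1). With 3 mice against 3, the exact permutation test (two-sided, 20 arrangements) cannot go below p = 0.1, the value that each pair had, before and after adjustment over the 7 pairs. Among single loci tested, 22.8% had every transgenic mouse above every control and 20.1% had every one below. No such share is given for other pairs of genes. *Timm17b* over *Timm17a* went from ratios of 0.406, 0.315 and 0.437 in controls to 0.18, 0.297 and 0.228 in transgenic mice, a log2 difference of -0.72 that was -0.55 without TG replicate 1. *Grpel2* over *Grpel1* went from 0.172, 0.193 and 0.194 to 0.121, 0.13 and 0.153, a log2 difference of -0.47.

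*Dnajc15* over *Dnajc19* went from 61.3, 41.7 and 43.5 in controls to 68.1, 61.1 and 67.3 in transgenic mice, with WT replicate 1 inside the transgenic range of plain ratios (log2 difference 0.47). *Pmpcb* over *Pmpca* went from 2.36, 2.28 and 2.55 to 3.31, 2.91 and 3.26, a log2 difference of 0.40. The *Mtx2* over *Mtx1* ratio changed from near equality, at 1.00, 1.03 and 1.14, to 1.74, 1.53 and 1.81 (log2 difference 0.66). *Tomm40l* over *Tomm40* was at 0.316, 0.344 and 0.354 in controls and 0.467, 0.378 and 0.374 in transgenic mice, a difference of 0.24 that was 0.14 without TG replicate 1. For *Timm8a1* over *Timm8b* the plain ratios overlapped, and with a pseudocount of 0.1 the groups overlapped on the log2 scale too (p = 0.3, exact permutation test).

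**Figure D3:**
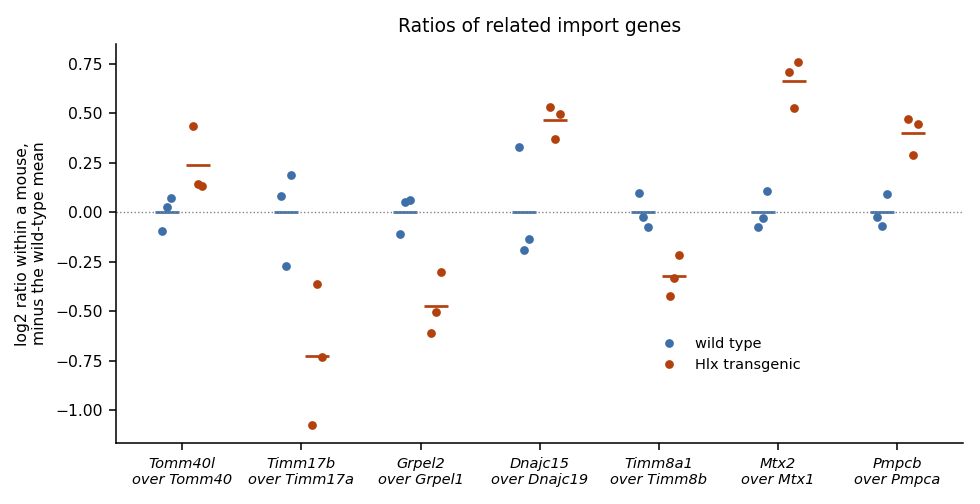
Log2 ratio of FPKM + 1 between related import genes within each mouse, shown relative to the wild-type mean of each pair; points are mice and bars are means of 3. The transgenic points lie above the controls for *Tomm40l*, *Dnajc15*, *Mtx2* and *Pmpcb* over their relatives and below for *Timm17b*, *Grpel2* and *Timm8a1*, with mean differences from -0.72 to 0.66.

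Of the genes that work with the import machinery but are outside the set, those that changed were higher. Of 15 such genes, all tested, 10 were called higher, where 11.6% of all loci were, and 0 lower, where 7.03% were (limma; at an unadjusted p under 0.05 also 10 and 0), with a median log2 fold change of 0.52. The count called higher was 6 without WT replicate 3, where 6.68% of all loci were, and 5 with no filter on low values, where 3.85% were. At an unadjusted p under 0.05, 2267 of the 11692 loci tested were higher and 1963 lower. *Mipep*, the intermediate peptidase, was at 39.4 ± 3.57 against 17.9 ± 1.68 FPKM (SD, n = 3; log2 fold change 1.10, adjusted p = 0.00108) and *Immp2l*, an inner membrane peptidase, was at 29.8 ± 2.34 against 15.6 ± 1.97 FPKM (0.90, adjusted p = 0.00292). *Xpnpep3*, an aminopeptidase, was also called (0.55, adjusted p = 0.00533). *Aifm1*, which tethers the MIA oxidoreductase *Chchd4*, was at 66.8 ± 7.12 against 34.6 ± 3.74 FPKM (0.93, adjusted p = 0.0027).

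*Hspa9*, the chaperone that drives the motor, was at 455 ± 70.3 FPKM in transgenic mice against 258 ± 31.7 FPKM in controls (SD, n = 3; log2 fold change 0.81, limma adjusted p = 0.0122). The outer membrane proteins *Mtch2* and *Mtch1* (0.70 and 0.52, adjusted p = 0.00956 and 0.0186), the metaxin *Mtx3* (0.63, adjusted p = 0.0218), *Dnajc11* (0.43, adjusted p = 0.0287) and the insertase *Oxa1l* (0.31, adjusted p = 0.0359) were called as well. The calls of *Mtx3*, *Dnajc11* and *Oxa1l* were lost in 6, 6 and 7 of 14 refits, and those of *Mtch1* and *Hspa9* in 2 and 1. The loci of *Oxa1l* and *Xpnpep3* overlap those of *Slc7a7* and *Dnajb7*. *Romo1*, *Agk*, *Pitrm1*, *Immp1l* and *Gfer* were not called, with log2 fold changes from 0.05 for *Gfer* to 0.32 for *Romo1* (348 ± 51.6 against 278 ± 36.3 FPKM). *Gfer*, which reoxidizes the MIA oxidoreductase, was at 18.2 ± 1.03 against 17.6 ± 3.08 FPKM (SD, n = 3; adjusted p = 0.791).

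In sum over the 32 loci, import RNA was at 2074, 1804 and 1806 FPKM in transgenic mice and 1444, 1293 and 1234 FPKM in controls. This was 0.383%, 0.351% and 0.358% of all FPKM against 0.278%, 0.273% and 0.265%, so all transgenic shares were higher. Relative to the wild-type mean, the MPP sum was 1.93 ± 0.217 in transgenic mice, SAM 1.66 ± 0.213, TIM22 1.53 ± 0.129, PAM 1.51 ± 0.114, TIM23 1.32 ± 0.143, small TIM and MIA 1.31 ± 0.0428 and TOM 1.19 ± 0.0861 (SD, n = 3). The 38 complex I subunits, a major cargo of the import route, reached 1.92 ± 0.248 and the 76 mitochondrial ribosomal proteins 1.32 ± 0.12. Of the complex I subunits 35 of 38 were called higher (median log2 fold change 0.88), and of the ribosomal proteins 37 of 75 tested (0.36), beside 11.6% and a median of -0.01 over all loci. The summed import FPKM was 13%, 14.3% and 13.7% of the complex I sum in transgenic mice and 18.3%, 17.6% and 19% in controls, so each transgenic mouse had less import RNA per complex I RNA than each control. Without *Dnajc15* these shares were 9.98%, 11% and 10.4% against 14.1%, 14% and 14.8%. No test between these lists was made.

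**Figure D4:**
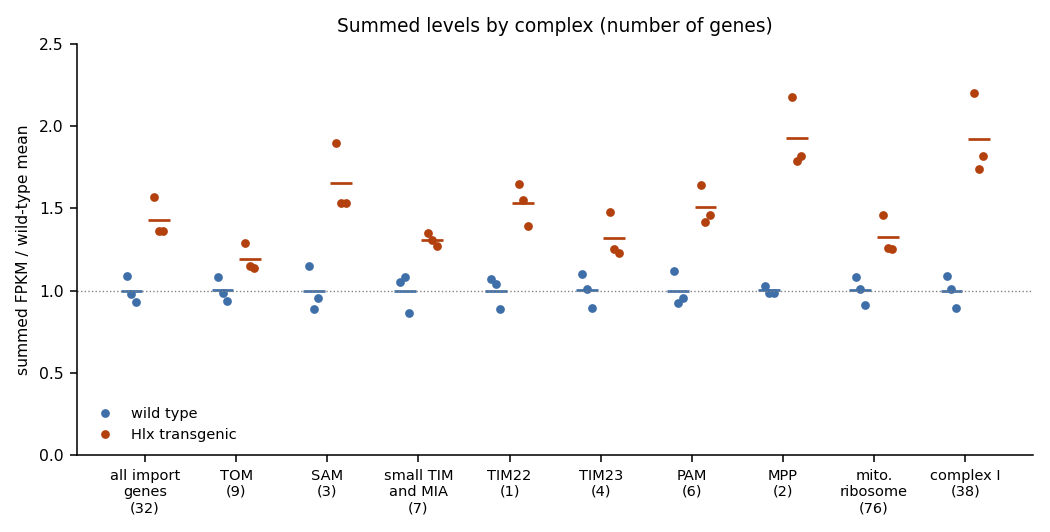
Summed FPKM of each import complex, of mitochondrial ribosomal proteins and of complex I subunits in each mouse, divided by the wild-type mean; bars are means of 3 mice and numbers of genes are in brackets. Transgenic means run from 1.19 for TOM to 1.93 for MPP, beside 1.92 for complex I.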

How the data were processed

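iWAT RNA of 3 transgenic and 3 wild-type mice was sequenced. The authors mapped the reads to mm10 with TopHat2 2.0.9 and Bowtie2 2.1.0 after CASAVA 1.8.2, and made FPKM values per gene locus and mouse with Cufflinks 2.2.1 (versions from the submitters' processing notes). The annotation is not given in the sources used here. The deposited FPKM values were used as they are, and no counts were used.

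Loci were kept where the transgenic or the wild-type mean exceeded 1 FPKM (11692 of 19445). log2(FPKM + 1) was tested with limma 3.58.1 in R 4.3.3 (eBayes with trend, two-sided, Benjamini-Hochberg adjustment over all loci tested). A fold change on this scale understates the change of low genes. Relative depth came from the spacing of values under 0.3 FPKM, of which 13.8% to 16.6% lay on the step used, so it is a rough estimate. The test was tried on simulated data, where 71% of the loci changed 2-fold and 98% of those changed 3-fold were recovered. Of the simulated calls 3.98% fell on unchanged loci. Only 100 of the 11692 loci were changed at each size, while 18.6% of all loci were called in the data. The adjustment depends on the share of changed loci, so recovery in the data may differ. Changes smaller than 2-fold, the size of most changes here, were not simulated.

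Members and lists were chosen with earlier results of these data known. Genes were named by complex: every member is accounted for, with values in every mouse for the 2 largest changes of a complex and for paired genes. Loci are given 1-based, and strand and gene bounds come from GENCODE M21. Alternatives were another pseudocount (0.1), other filters, quantile or median-ratio scaling, eBayes without trend, sample weights, a replicate block, each mouse left out and a stricter threshold. A search of protein sequences for cysteine motifs was planned and not made.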

Additional observations from a re-analysis of the deposited data

How the results depend on the processing

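The median log2 fold change of the import genes stayed between 0.27 and 0.41 in all 14 refits of the table. With the 14 genes on overlapping or shared loci left out, a setting chosen after seeing the data, 10 of the 16 genes tested were called higher and the median was 0.55. The number of import genes called higher was 7 without a filter on low values, where 3.85% of all loci were called higher, and 4 at an adjusted p under 0.01. With each mouse left out it ranged from 7 to 14, and that of partner genes from 6 to 9, where 6.68% to 11.1% of all loci were called higher. Partner genes called higher were 5 without a filter and 5 at an adjusted p under 0.01. For the stricter threshold no share of all loci is given. *Tomm34* was the 1 import gene called lower with quantile normalization, with sample weights and without TG replicate 2 (adjusted p = 0.0465, 0.0483 and 0.0366), so the count of lower genes ranged from 0 to 1 with a mouse left out. Directions turned for *Timm17b* without TG replicate 3 (log2 fold change from -0.11 to 0.018 with a mouse left out), *Gfer* without WT replicate 3 (-0.077 to 0.16) and *Immp1l* without TG replicate 2 (-0.056 to 0.32), none of them called. The cause of these shifts was not tested. Of the 616 gene values in the refits 526 kept direction and side of the threshold, 79 lost a call and 8 gained one. With the replicate block, 15 import genes, 13 of them shared with the fit without it, and 9 partner genes were called higher. In that fit 10.5% of all loci were called higher. *Tomm70a*, *Timm10* and *Timm17a* lost their call and *Tomm22* and *Timm23* gained one. The replicate numbers name different animals, and deviations of mice with the same number correlated at 0.0129, 0.0344 and 0.0701, and no mouse correlated best with its own number, so the numbers were not taken as pairs. Pair ratios, computed with the other pseudocount, with each mouse left out and with the replicate block, kept their direction in these settings. The depth is unknown, so values under 1 FPKM have no stated precision.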
